A study of Dicentrarchus labrax with 16 samples.

Results

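The DNA methylation landscape of muscle is described here on its own, from reduced representation bisulfite sequencing (RRBS) of muscle from 3 European sea bass (Dicentrarchus labrax). A cytosine was kept where each of the 3 muscle libraries covered it with at least 10 reads and the cytosine was not among the 0.1% with the most reads in any of them, whether or not testis covered it. This left 539003 cytosines in CpG context of the 1294841 listed in at least 1 muscle library, and of the 1456257 listed in at least 1 of the 6 RRBS libraries of the series, which also hold testis. The fish were wild adults caught by speargun at sea outside the reproductive season, without treatment, and their muscle was put into RNAlater on the boat. The libraries are named muscle 1, muscle 2 and muscle 3 after the numbers in their titles, 1 library per fish. The labelled tissue was not checked against marker genes here, since the expression tables of the series give 1 value per tissue and none per fish, and no gene position was used, so the results are given by position on the sea bass assembly dicLab v1.0c. No test was run and no p-value is given: with 1 tissue and 3 fish, the values below are levels, shares and their spread over the fish.

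In vertebrates, DNA methylation is found mainly on cytosines followed by a guanine (CpG), and most CpGs of the genome carry it in most cells. Stretches dense in CpGs, many of them at the starts of genes, are the usual exception and stay unmethylated. RRBS cuts DNA at MspI sites, which contain a CpG, and so samples CpG-rich fragments. Bisulfite then turns unmethylated cytosines into bases read as T and leaves methylated ones as C. The methylation level of a cytosine is the percent of its reads that kept C. It is an average over the cells and the alleles in the library, and a cytosine replaced by T in a fish's own genome also reads as unmethylated. Genotypes were not analysed here.

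Muscle 2 was sequenced more deeply than the others. Mean coverage was 49.2 reads per listed cytosine in muscle 1, 99.5 in muscle 2 and 47.9 in muscle 3, over 989066, 1149189 and 961700 listed cytosines. At the kept cytosines the median coverage was 53, 136 and 53 reads, with upper limits of 626, 1385 and 649 reads. The kept set held 76.4%, 64.2% and 77.7% of the cytosines that were within the limits in muscle 1, 2 and 3. The cytosines left out for too many reads were few, 988, 1149 and 956, and 89.98%, 91.4% and 92.2% of them lay on unplaced sequence, and their mean level was between 73.5% and 82.6%. Reads carried no molecular tags, so that several reads can come from 1 DNA molecule. No pair of libraries held the same read counts at more than 0.626% of the kept cytosines.

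DNA methylation in muscle followed a bimodal distribution with more weight at the methylated end. When the reads of the 3 fish were summed, 51.2% of the cytosines were at 80% or more (methylated below), 23.4% were under 10% (unmethylated below) and 22.6% were from 20% to under 80% (intermediate below). The mean level was 61.2% in muscle 1, 61.4% in muscle 2 and 62.6% in muscle 3, or 61.7% ± 0.768 (SD, n = 3 fish). The median was 82.5% ± 0.722 (SD, n = 3 fish). The unmethylated share was 26.1%, 24.7% and 24.98% in muscle 1, 2 and 3, and the methylated share was 51.6%, 52.1% and 53.2%. The intermediate share was 19.9%, 20.5% and 19.7%, lower in each fish than in the summed reads. The 3 fish thus lay within 2 percentage points of each other in these classes, much less than the distance between the classes. Unmethylated cytosines were close to 0, with a mean level of 1.82% in the summed reads, and methylated ones had a mean of 92.6%.

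**Figure D1:**
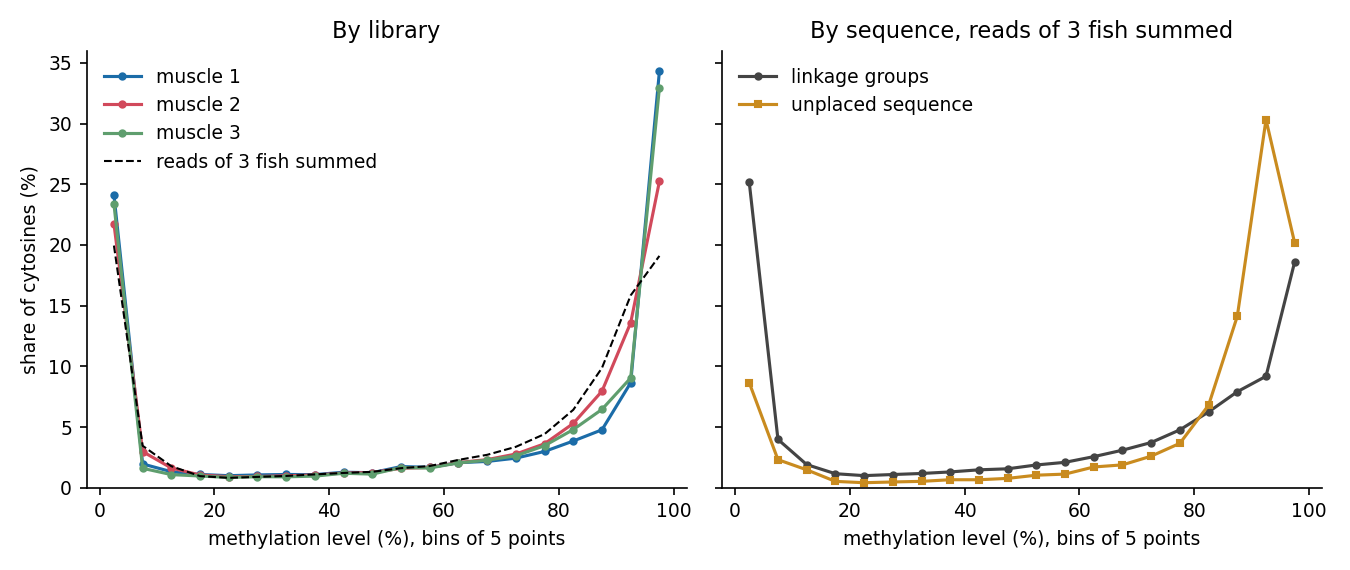
Share of kept cytosines (%) in bins of 5 percentage points of methylation level, for the 3 libraries and their summed reads (left) and for linkage groups and unplaced sequence in the summed reads (right). The lowest and highest bins hold the peaks in every library (24.1%, 21.8% and 23.4% in the lowest bin in muscle 1, 2 and 3), and the unplaced sequence peaks at 90% to 95%, which holds 30.3% of its cytosines.

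The ends of the distribution moved with coverage. Levels of exactly 0% or 100% were found at 44.7% of cytosines in muscle 1, 27.6% in muscle 2, the deepest library, and 45.2% in muscle 3. With every cytosine thinned to 10 reads drawn at random, these shares were 61.6%, 54.0% and 60.7%. Muscle 2 was therefore the lowest both before and after thinning, and the gap to the other libraries was smaller at equal depth. The share at 90% or more ranged from 38.8% in muscle 2 to 42.9% in muscle 1, while the share from 80% to under 90% was 13.3% in muscle 2 and 8.64% in muscle 1.

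Linkage groups, the sea bass equivalent of assembled chromosomes, and sequence not placed on any of them had different landscapes. The 369123 cytosines on linkage groups (68.5%) had a mean level of 55.0%, with 29.1% unmethylated and 42.0% methylated. The 169880 cytosines on unplaced sequence (31.5%) had a mean level of 76.0%, with 10.97% unmethylated and 71.4% methylated. Their means over all cytosines were 76.2%, 75.8% and 76.1% in the 3 fish, a spread of 0.241 (SD, n = 3 fish). The methylated cytosines of both had means of 92.8% and 92.2%, which the class limit of 80% keeps close together. Above that limit the distributions differed. From 90% to 95% lay 9.19% of all cytosines on linkage groups and 30.3% of those on unplaced sequence. From 95% up these shares were 18.6% and 20.15%. The unplaced sequence is listed under 1 name and may be joined from separate pieces, in which case distances within it can cross a join. Values for linkage groups alone are therefore given beside the main correlations and run lengths, while shares of neighbouring cytosines and strand comparisons cover all sequence.

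A cytosine that was intermediate in the summed reads was often not intermediate in every fish. Of the 121754 intermediate cytosines, 27.0% were intermediate in all 3 fish, 40.6% in 2 fish, 26.3% in 1 fish and 6.05% in none. Cytosines in the middle of the range, from 40% to under 60%, were intermediate in all 3 fish in 45.2% of cases, against 22.9% for those from 20% to under 40% and 19.9% for those from 60% to under 80%. At 9.45% of the intermediate cytosines, 1 fish was under 10% and another at 90% or more. A level of exactly 0% or 100% was read at 19.4% of them in muscle 1, 7.36% in muscle 2 and 21.4% in muscle 3. Muscle 2 gave the most reads to the sums, with a median coverage of 136 against 53 in each of the others. It therefore weighed most in the choice of these cytosines, and its values are not comparable with those of the other fish.

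The strands of a CpG were at similar levels. The kept cytosines fell on 484904 CpG positions, and both strands were kept at 54099 of them (11.2%). Mean levels of the forward and the reverse cytosines were both 61.6%. Across the positions with both strands, Pearson's r between strands was 0.945 in the summed reads and 0.873, 0.923 and 0.870 in muscle 1, 2 and 3, and the median absolute difference was 3.32 percentage points. When the strands were taken from different fish, the mean r over the 6 pairings was 0.875. At 810 positions (1.50%) the strands were more than 50 points apart, and at 243 of these (0.449% of positions with both strands) 1 strand was under 10% and the other at 80% or more. All later values by CpG position sum the strands.

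The relation of level to CpG density differed between the linkage groups and the unplaced sequence. On linkage groups, the mean level in muscle 1, 2 and 3 was 67.6%, 68.6% and 71.1% at CpG positions with no other kept position within 50 bp. It was 48.8%, 49.2% and 50.2% at positions with 4 such neighbours, and 22.3%, 22.4% and 21.7% at those with 11 or more. The level thus fell with each added neighbour, in each fish, and the fish did not overlap between neighbouring classes, except between 0 neighbours and 1. The unmethylated share went the other way, with 7.07% at 0 neighbours, 38.0% at 4 and 73.7% at 11 or more. The intermediate share was 43.9%, 19.1% and 4.40% in the same classes, so that isolated CpGs were the ones most often between the extremes. Neighbours were counted among kept positions, so a low count can also mean that nearby CpGs were not covered.

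On unplaced sequence the order was different. Means over the 3 fish were 75.7% ± 0.955 at 0 neighbours, 71.3% ± 0.553 at 3 neighbours, the lowest class, and 86.4% ± 1.27 at 11 or more (SD, n = 3 fish each). The unmethylated share was 4.12% at 0 neighbours and 6.51% at 11 or more, and the methylated share reached 90.6%. The densest CpGs were therefore mostly unmethylated on linkage groups and mostly methylated on unplaced sequence. Coverage rose along with density, with a median of 235 summed reads at 0 neighbours and 448 at 11 or more over all sequence, and its part in these values was not tested.

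**Figure D2:**
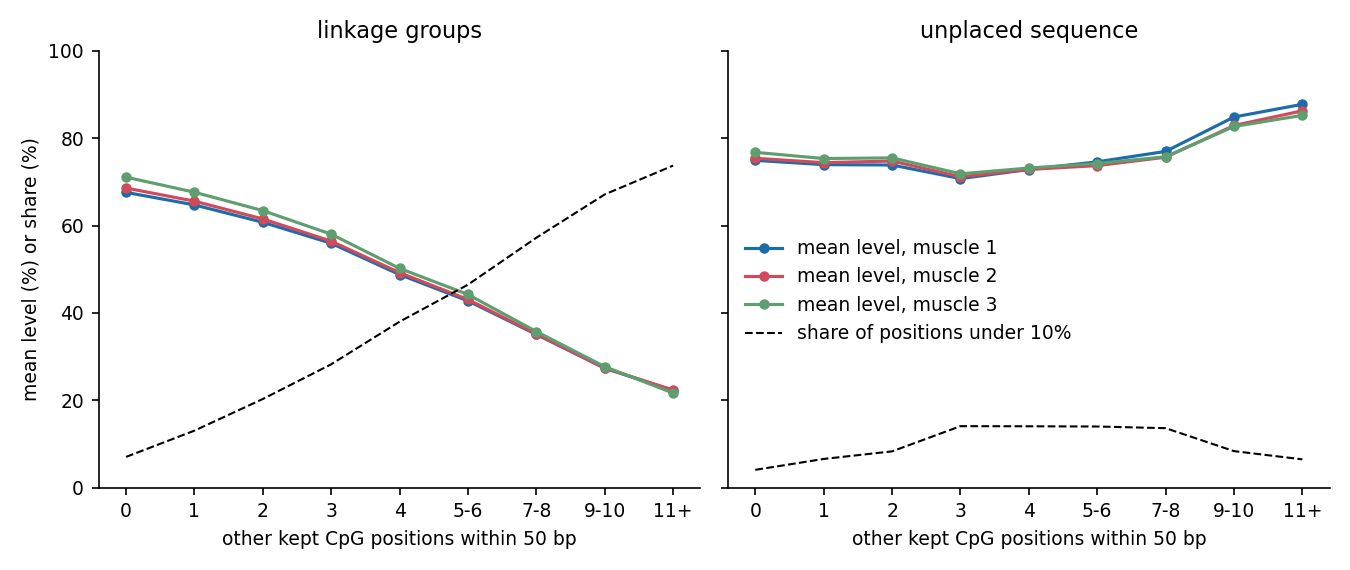
Mean methylation level (%) of CpG positions in each muscle library, and share of positions under 10% in the summed reads (%), by the number of other kept CpG positions within 50 bp, for linkage groups (left) and for unplaced sequence (right). On linkage groups the 3 fish lie between 67.6% and 71.1% at 0 neighbours and between 21.7% and 22.4% at 11 or more, and on unplaced sequence no class is under 70.8% in any fish.

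Levels of nearby CpGs were alike within 500 bp and lost most of their likeness between 500 bp and 5 kb. Across pairs of CpG positions of the summed reads, Pearson's r was 0.963 at 2 to 10 bp (205431 pairs), 0.948 at 101 to 200 bp and 0.938 at 201 to 500 bp. It was 0.842 at 501 to 1000 bp, 0.525 at 1001 to 2000 bp, 0.204 at 2001 to 5000 bp and 0.090 at 5001 to 10000 bp. From there to 100 kb it stayed between 0.110 and 0.121. On linkage groups alone r was 0.961 at 2 to 10 bp, 0.912 at 201 to 500 bp, 0.780 at 501 to 1000 bp, 0.403 at 1001 to 2000 bp and 0.121 at 2001 to 5000 bp. There it was 0.064 at 5001 to 10000 bp, between 0.067 and 0.080 from there to 100 kb, and 0.048 at 100001 to 1000000 bp. Without the unplaced sequence r was thus lower at each distance up to 100 kb, and fell over the same distances. Linkage groups held 119786 of the 205431 pairs at 2 to 10 bp, and 347136 of the 1428681 pairs at 1001 to 2000 bp. Most pairs at 1001 to 2000 bp thus lay on unplaced sequence. Ranked levels were less alike, with a Spearman's rho of 0.820 at 2 to 50 bp and 0.236 at 1001 to 2000 bp in the summed reads of all sequence. These correlations are across pairs that share positions and libraries, and describe the landscape only.

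Single fish followed the same curve at a lower level. At 2 to 10 bp r was 0.919, 0.945 and 0.923 in muscle 1, 2 and 3, and at 1001 to 2000 bp it was 0.492, 0.506 and 0.468. The deepest library had the highest value at each distance up to 10 kb. When the members of a pair were read in different fish, r was 0.890 at 2 to 10 bp, 0.904 at 51 to 100 bp, 0.804 at 501 to 1000 bp and 0.487 at 1001 to 2000 bp. On linkage groups alone r between fish was 0.871 at 2 to 10 bp and 0.361 at 1001 to 2000 bp. Beyond 50 bp the values between fish were thus close to those within fish, and the excess within the same fish was larger at shorter distances.

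Up to 50 bp that excess was larger on the same strand. The deviation of a fish from the mean of the 3 fish was taken at each cytosine and correlated between cytosines. On the same strand r averaged 0.444 at 2 to 10 bp, 0.401 at 11 to 20 bp and 0.307 at 21 to 50 bp, and on opposite strands 0.131, 0.115 and 0.102. At 51 to 100 bp the averages were 0.094 on the same strand and 0.095 on opposite strands, and at 201 to 500 bp they were 0.050 and 0.051, above 0 in each fish. In each fish the same-strand value was the higher up to 50 bp, with 0.430 against 0.105 in muscle 1, 0.437 against 0.122 in muscle 2 and 0.465 against 0.165 in muscle 3 at 2 to 10 bp. The reads were 50 bp long, and cytosines on 1 strand within that distance can lie on the same read. How much of the excess came from shared reads was not tested.

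**Figure D3:**
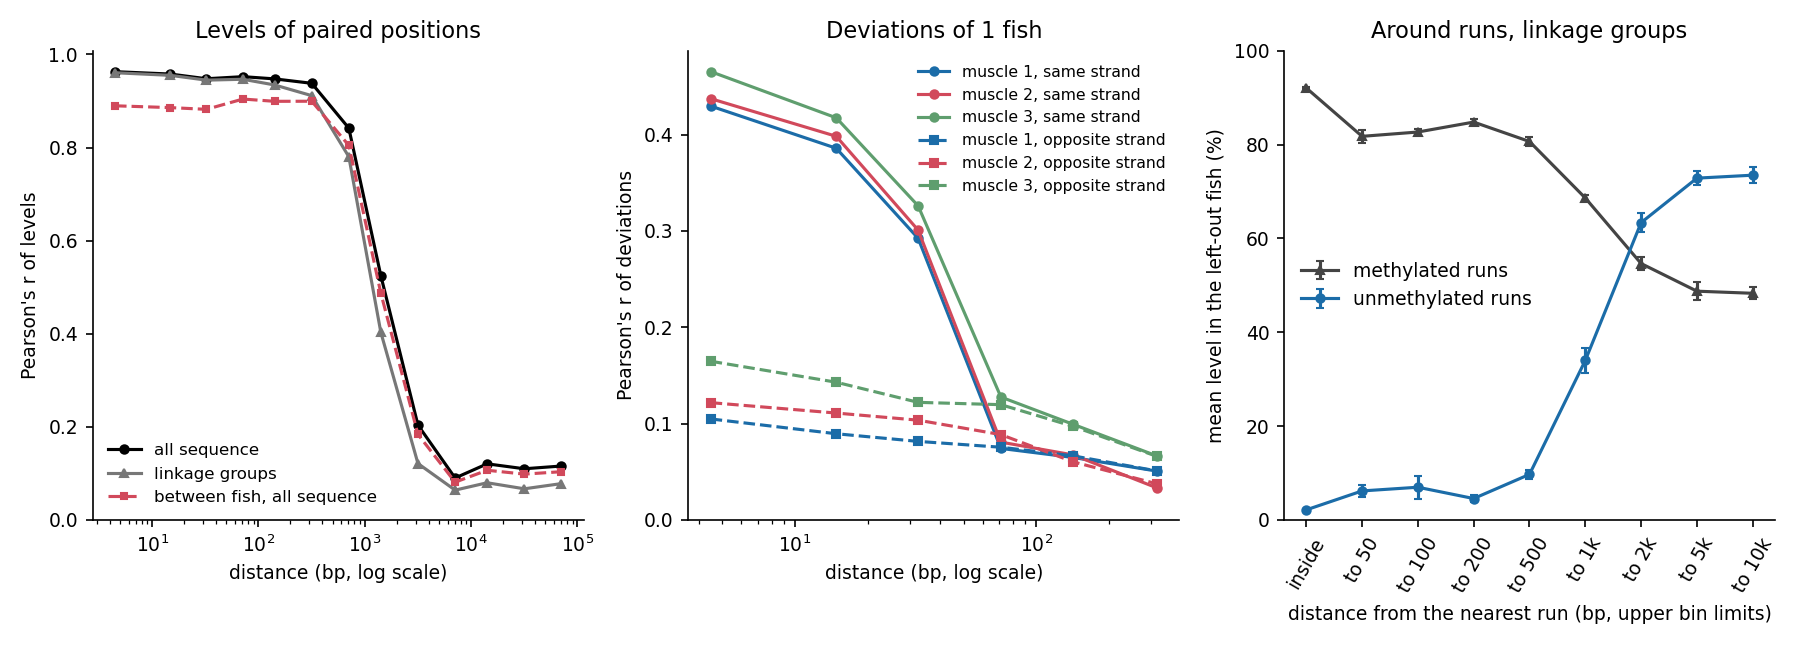
Left: Pearson's r between levels of CpG positions against their distance (bp, log scale) for all sequence, linkage groups and pairs read in different fish, falling to 0.525, 0.403 and 0.487 at 1001 to 2000 bp. Middle: r between deviations of 1 fish from the 3-fish mean, on the same and on opposite strands, which meet near 0.09 beyond 50 bp. Right: mean level (%) in the fish left out of choosing the runs, inside and around methylated and unmethylated runs on linkage groups (points are means over 3 fish, bars the SD), crossing between 501 and 2000 bp. Positions inside the runs of a kind are left out of the bins around them.

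Most unmethylated CpGs lay in runs, and most kept CpGs of any level lay in similar stretches. A run was defined as at least 3 kept CpG positions in a row, no more than 100 bp apart, that were all in 1 level class in the summed reads. There were 13990 unmethylated runs, and they held 88.0% of the 111950 unmethylated positions. Of all 484904 kept positions, 83.8% lay in stretches of at least 3 with the same gap limit, whatever their levels. The share in unmethylated runs was thus near that of all positions, although a run also needs all its positions in 1 level class and a stretch does not. The unmethylated runs had a median length of 70 bp (quartiles 40 and 129 bp), the longest spanned 785 bp, and the most CpG positions in 1 run was 58. The number of runs was 15724, 14834 and 15302 when levels of muscle 1, 2 and 3 alone were used, with medians of 57, 65 and 58 bp. The deepest library gave the longest runs.

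Methylated runs were more numerous, and shorter on linkage groups. There were 29049 of them, holding 70.7% of the 247719 methylated positions, with a median of 52 bp (quartiles 34 and 99 bp) and a maximum of 714 bp. In muscle 1, 2 and 3 alone their medians were 48, 50 and 48 bp. On linkage groups the medians were 49 bp for methylated and 71 bp for unmethylated runs, and on unplaced sequence they were nearly equal at 57 and 58 bp. Intermediate runs numbered 10618 and held 39.4% of the 112372 intermediate positions, with a median of 54 bp and a maximum of 383 bp. Runs over 200 bp made up 9.78% of the unmethylated, 5.60% of the methylated and 1.70% of the intermediate runs. The next kept position within 100 bp was there for only 22.2% of the ends of unmethylated runs and 20.97% of the ends of methylated runs, so that most runs ended where coverage ended, and lengths are lower limits there. All clusters of 3 or more kept positions, whatever their levels, had a median of 72 bp.

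Unmethylated and methylated CpGs were rarely found in 1 cluster. Of the 63550 clusters, 13.8% had all positions unmethylated, 28.9% all methylated, 9.72% all intermediate and 1.46% both an unmethylated and a methylated position. The other 46.1% held some other mixture, such as methylated beside intermediate positions. A CpG 2 to 10 bp from an unmethylated neighbour was itself unmethylated in 93.7% of pairs and methylated in 0.322%. For neighbours 501 to 2000 bp apart with none kept between them these shares were 39.1% and 29.2%, and for 2001 to 10000 bp they were 16.1% and 48.9%. At that distance all positions in such pairs had shares not far from these, 12.2% unmethylated and 51.2% methylated.

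Runs were found again in the other fish, unmethylated ones most fully. Runs were defined in 1 fish and their levels were then read in another fish, for the 6 ordered pairs of fish. Positions of unmethylated runs had a mean level of 3.53% in the other fish (from 2.97% to 4.46% over the pairs), and 91.1% of them (89.6% to 92.2%) were unmethylated there, against 24.9% of all positions. Positions of methylated runs had a mean of 90.4% in the other fish (89.7% to 91.2%), and 87.5% of them (85.5% to 89.2%) were methylated, against 52.2% of all positions. Positions of intermediate runs had a mean of 61.7% (57.2% to 66.6%), and 58.8% of them (53.9% to 65.3%) were intermediate, against 20.4% of all positions. Every position of the run kept its class in the other fish in 64.6% of unmethylated, 57.7% of methylated and 31.0% of intermediate runs.

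Around unmethylated runs, low levels reached further than the runs themselves. Runs of at least 5 positions on linkage groups were chosen from the summed reads of 2 fish, and levels around them were read in the fish left out, which used 7376 to 7575 runs. Inside the runs the left-out fish had 2.19%, 1.93% and 2.34% (muscle 1, 2 and 3). At 1 to 50 and 51 to 100 bp from the nearest run, bins that hold the positions that broke a run, the means over fish were 6.19% and 6.98%. At 101 to 200 bp the levels were 4.45%, 3.84% and 5.42%, and at 201 to 500 bp they were 9.43%, 8.92% and 10.8%. They were 33.2%, 31.9% and 36.9% at 501 to 1000 bp, 63.4%, 61.4% and 65.3% at 1001 to 2000 bp, and 72.1%, 71.8% and 74.6% at 2001 to 5000 bp. From 101 bp on, the fish did not overlap between these distances, and the unmethylated share was 81.1% at 201 to 500 bp, 51.8% at 501 to 1000 bp and 21.9% at 1001 to 2000 bp. At 5001 to 10000 bp the mean of 73.5% ± 1.68 (SD, n = 3 fish) was within the spread of that at 2001 to 5000 bp. Positions inside the unmethylated runs are left out of all these bins. The outer means therefore cannot be set against the mean of all cytosines on linkage groups.

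Around methylated runs, levels fell with distance beyond 200 bp. The 6150 to 6711 runs chosen in the same way had 91.8%, 92.2% and 92.2% inside in the left-out fish. Means over fish were 81.8% at 1 to 50 bp, 82.7% at 51 to 100 bp and 84.8% at 101 to 200 bp. The levels were 79.8%, 80.4% and 81.8% at 201 to 500 bp, 68.6%, 68.1% and 69.2% at 501 to 1000 bp, and 53.0%, 55.3% and 55.6% at 1001 to 2000 bp. At 5001 to 10000 bp the mean was 48.3% ± 1.32 (SD, n = 3 fish). Positions inside the methylated runs are left out of these bins, so this mean cannot be set against that of all cytosines on linkage groups.

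The longest runs on linkage groups show what the classes look like in single fish. The longest unmethylated run lay on LG6 (25777129 to 25777882, 754 bp) and had 40 CpG positions, with mean levels of 3.19%, 2.31% and 1.71% in muscle 1, 2 and 3. The next, on LG22-25 (18567798 to 18568547, 750 bp), had 47 positions at 3.70%, 1.54% and 1.81%. Those on LG17 (22818599 to 22819309) and LG9 (7345726 to 7346435) held 46 and 50 positions, and no fish had a mean over 3.06% in either. In the 4 runs the fish differed by at most 2.16 percentage points. All 4 combined both strands, with the lowest coverage of any library at 10 reads.

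The 4 longest methylated runs were shorter, from 520 to 540 bp, with 24 to 33 CpG positions. The longest lay on LG2 (20347925 to 20348464), with means of 91.5%, 94.8% and 92.4% in muscle 1, 2 and 3. On LG14 (28016565 to 28017084) the means were 98.8%, 96.9% and 99.1%, the highest of the 4 runs. On LG6 (25675707 to 25676233) they were 93.2%, 91.2% and 87.1%. On LG22-25 (17557519 to 17558054) they were 86.6%, 96.3% and 96.6%, so that muscle 1 was lower by 10.02 points than the highest fish. That run held cytosines at 0% in muscle 1, whereas in muscle 2 none was under 83.3%.

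The 3 longest intermediate runs differed in how alike the fish were. On LG2 (20353605 to 20353952), near the longest methylated run, 18 CpG positions had means of 44.1%, 43.7% and 59.5% in muscle 1, 2 and 3. On LG13 (11035634 to 11035965), 15 positions had means of 30.5%, 50.02% and 49.3%. The other run on LG13 (25502751 to 25503079), with 21 positions, had 51.6%, 21.8% and 87.7%, a range of 65.9 points around a level of 42.8% in the summed reads. The mean of muscle 3 was thus in the methylated class there, and those of the others in the intermediate class. Single cytosines went down to 38.6% in muscle 3, and spanned 3.57% to 100% in muscle 1 and 0% to 62.0% in muscle 2.

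Clusters with nearly the same intermediate level in each fish were also found. They were chosen for the smallest range among clusters of at least 5 positions with a mean from 40% to 60%, so the closeness of their means is a description. On LG12 (6479326 to 6479440) the means were 55.7%, 55.6% and 55.4% in muscle 1, 2 and 3, although single cytosines reached from under 10% to 100% in muscle 1. On LG11 (25094979 to 25095051) they were 54.8%, 55.2% and 55.7%, with cytosines between 26.5% and 77.1% in every library. The cluster on LG19 (3339347 to 3339514), with 50.6%, 51.8% and 51.5%, was different in kind: its 20 positions spanned 0% to 90.1% in the summed reads. Among the 1504 such clusters the median range between fish was 26.3 points, and 13.3% had a range under 10 points.

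Linkage groups differed in mean level by more than the fish did. LG24 had the highest mean, with 61.6%, 62.4% and 64.5% in muscle 1, 2 and 3. LGx followed with 59.4%, 60.2% and 62.4%. LG8 had 49.9%, 50.2% and 51.3%, and LG7 had 49.7%, 50.3% and 51.3%, the 2 lowest means. The difference between LG24 and LG8 was 11.7, 12.2 and 13.2 points in the 3 fish, 12.3 ± 0.780 (SD, n = 3 fish). The SD of the fish within a linkage group was between 0.738 and 1.62 points, and averaged 0.431 points once the overall mean of each library was taken off.

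The order of the 24 linkage groups was much the same in each fish, with Spearman's rho between 0.953 and 0.973 over the pairs of fish. Neighbours in that order were mostly not separated: of 23 neighbouring pairs, 10 had the same direction in all 3 fish. LG24 exceeded LGx by 2.20, 2.19 and 2.16 points, LGx exceeded LG5 by 2.62, 2.72 and 4.10 points, and LG22-25 exceeded LG7 by 2.08, 1.99 and 2.57 points. LG7 and LG8 differed by -0.064 ± 0.198 points (LG7 minus LG8, SD, n = 3 fish) and changed places between fish. The groups at either end of the order were therefore set apart from the rest, while most neighbours in the middle were not separated. Groups further apart in the order could still differ in each fish. An example is LG12, with 51.7%, 52.8% and 54.5%, and LG5, with 56.8%, 57.5% and 58.3%.

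Linkage groups varied in their mix of classes, and little in the level of methylated cytosines. The unmethylated share was lowest in LG24 at 20.5% and highest in LG7 at 35.2%, and across the 24 groups it had a Spearman's rho of -0.907 with the mean level. The mean level of methylated cytosines was between 92.5% and 93.2% in every group. Both values are partly set by their definitions. The unmethylated cytosines enter the mean level themselves, and methylated ones are at 80% or more by definition. The mean number of neighbours within 50 bp had a rho of -0.060 with the mean level. With each group weighted to the same distribution of neighbour counts, LG24 had 62.8% and LG7 51.4%, and the range over groups was 11.4 points instead of 12.3. All these are descriptions over 24 groups that share the same 3 libraries.

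**Figure D4:**
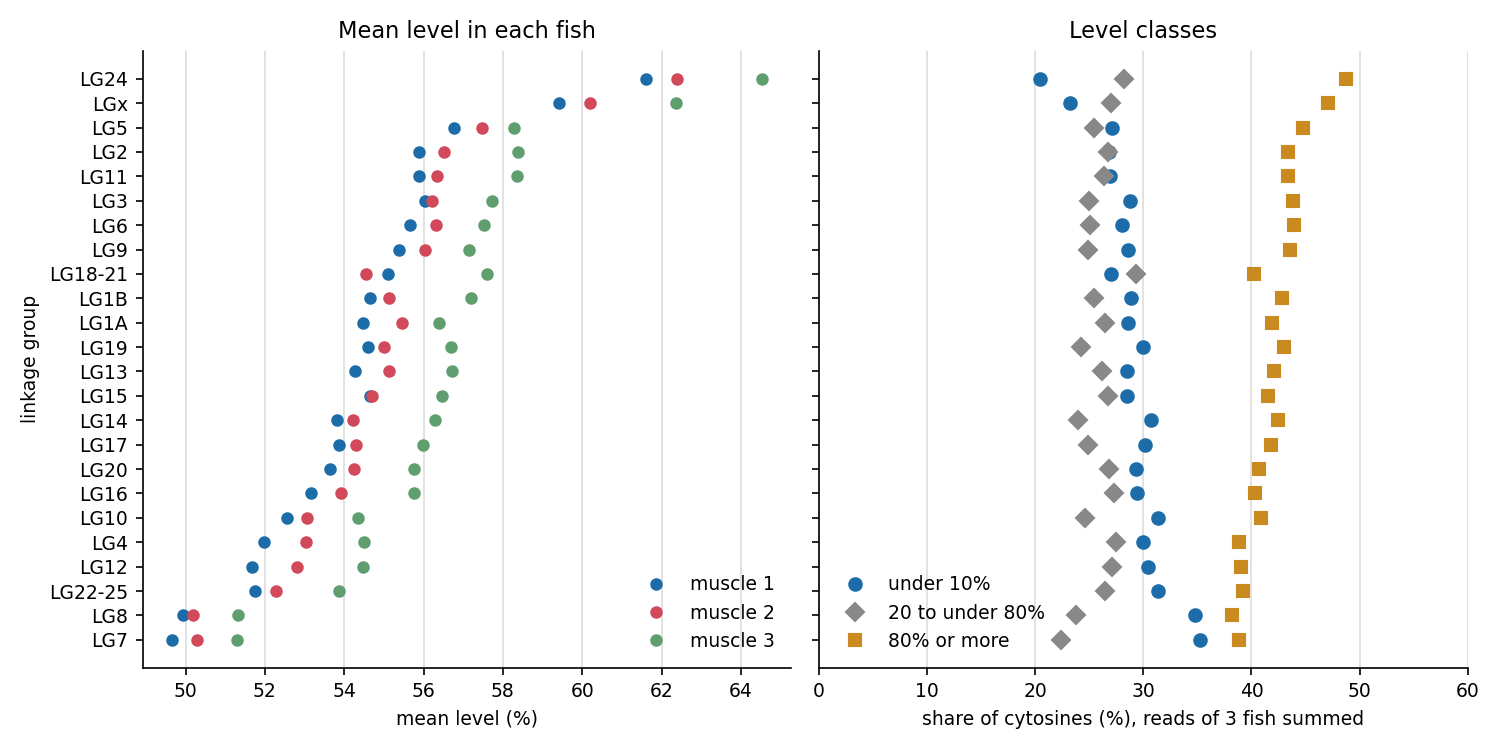
Mean methylation level (%) of each linkage group in the 3 muscle libraries (left, horizontal axis not starting at 0) and the shares of cytosines in 3 level classes in the summed reads (right), with groups sorted by the mean over fish. LG24 and LGx stand above the rest in each fish and LG8 and LG7 below, with muscle 3 to the right throughout, and the unmethylated share spans 20.5% to 35.2%.

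Within linkage groups the landscape varied over megabases. In the 588 windows of 1 Mb with at least 100 kept cytosines, the mean level had a 5th percentile of 37.4%, a median of 54.4% and a 95th percentile of 71.5%. The SD over windows was 10.2 points, against a median SD between fish of 1.34 points in a window. The lowest windows were on LG9 (11000001 to 12000000), with 30.1%, 30.4% and 32.1% in muscle 1, 2 and 3, and on LG13 (18000001 to 19000000), with 31.1%, 31.6% and 33.6%. More than 55% of their cytosines were unmethylated. The highest were on LG11 (26000001 to 27000000), with 82.1%, 83.0% and 84.8%, and on LG1A (1000001 to 2000000), with 80.7%, 80.7% and 80.02%, where 2.91% and 3.53% of the cytosines were unmethylated. The LG11 window held only 206 kept cytosines, against a median of 573 over the windows. LG11 as a whole held 15645 at 597 per Mb, so the group ends within this window, which spans less than 1 Mb. Its mean is thus from a shorter stretch than those of full windows.

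Levels were higher towards the ends of linkage groups. Within 5% of the length of a group from the nearer end, taking the last listed cytosine as its end, the mean was 63.2%, 64.1% and 65.3% in muscle 1, 2 and 3. It was 56.7%, 57.4% and 59.1% between 10% and 20% of the length from an end, and 46.8%, 47.0% and 48.8% in the innermost part, 40% to 50% from an end. The unmethylated share was 20.2% in the outermost and 36.8% in the innermost part. The mean number of kept neighbours within 50 bp was 3.46 in the outermost and 3.03 in the innermost part. The part of CpG density in these levels was not tested.

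The fish were alike at most cytosines and far apart at a minority. Over the 3 fish the median SD per cytosine was 4.88 percentage points, with quartiles of 1.01 and 14.1. The range between the highest and the lowest fish was at most 10 points at 52.2% of the cytosines and over 50 points at 54162 of them (10.05%). Pearson's r across cytosines was 0.865 between muscle 1 and 2, 0.825 between muscle 1 and 3 and 0.857 between muscle 2 and 3. After thinning to 10 reads these were 0.833, 0.7997 and 0.825, in the same order.

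The spread was larger than the sampling of independent reads alone would give. The root mean square SD was 15.8 points, and binomial sampling of independent reads at the observed coverage would give 4.42 points, a variance ratio of 12.7. At 10 reads in every library the ratio was 3.55. The binomial value was taken at the level of each cytosine in the summed reads, not at each fish's own level. Since reads need not be separate molecules, the sampling error can be larger than this value. Spread between fish and spread from few molecules cannot be told apart. The ratio was lowest at the extremes, 7.51 for unmethylated cytosines and 6.66 for those at 90% or more, and highest, 17.3, for those from 20% to under 40%. Cytosines from 40% to under 60% had a median range of 47.7 points, against 0.686 points for unmethylated ones. These classes were set by the summed reads of the same 3 fish. Fish that lie far apart tend to put a cytosine in a middle class, so the differences between classes follow in part from the classing.

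Wide ranges were less frequent where coverage was deep. A range over 50 points was seen at 15.3% of the cytosines whose lowest library had 10 to 19 reads, at 7.58% of those with 40 to 79 reads and at 0.611% of those with 160 or more. The last group lay on unplaced sequence in 76.0% of cases, against 28.2% in the first, and 8.97% and 24.8% of them were intermediate. Linkage groups had a wide range at 12.4% of their cytosines and the unplaced sequence at 4.87%. Linkage groups ranged from 11.2% on LG7 to 14.8% on LG18-21.

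**Figure D5:**
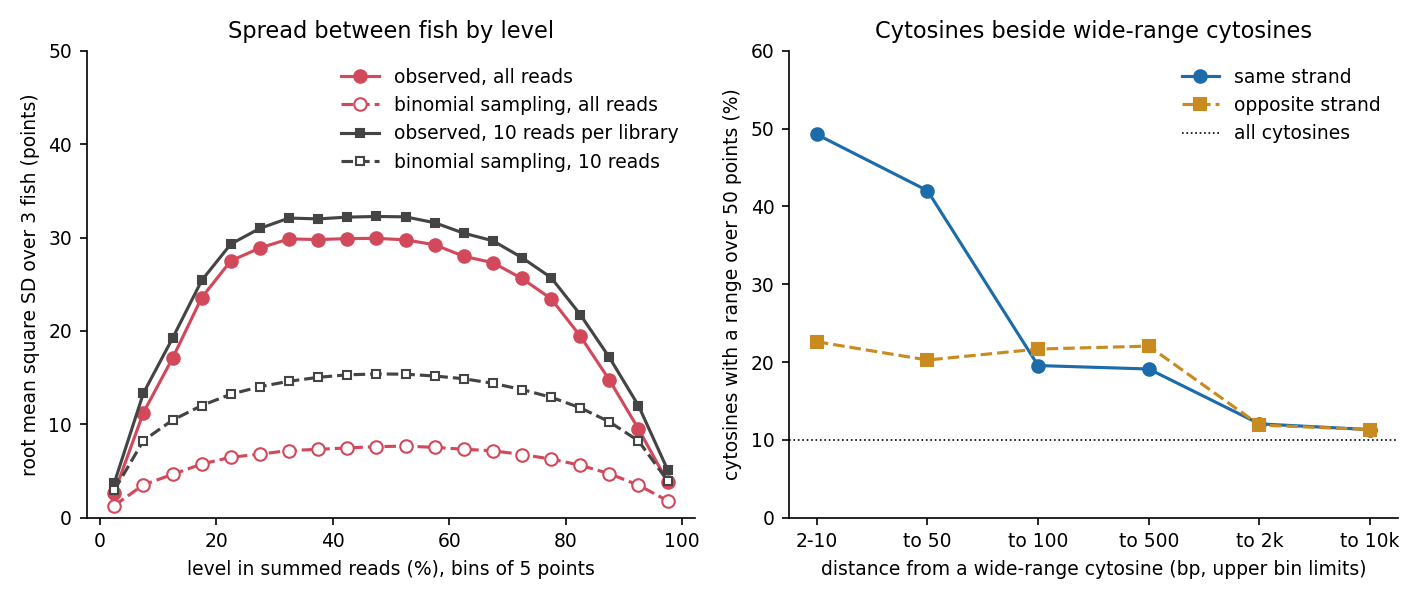
Left: root mean square SD of the level over the 3 fish (percentage points) against the level in summed reads, observed and under binomial sampling, with all reads and at 10 reads per library. The observed spread peaks near the middle of the range, at 29.9 points against 7.62 points under sampling for 45% to 50%. The level is from the same fish, and fish far apart tend to give a middle level. Right: share of cytosines with a range over 50 points (%) by distance from such a cytosine and by strand, 49.2% and 22.6% at 2 to 10 bp, with the dotted line at 10.05% for all cytosines. The line is not the background of cytosines with a neighbour at a given distance and strand.

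At wide-range cytosines the fish that stood apart was most often muscle 3 or muscle 1. Muscle 1 was farthest from the median fish at 37.0% of them, muscle 2 at 23.1% and muscle 3 at 39.96%. The fish that stood apart was lower than the others in 62.6% of cases, in 72.8% for muscle 1, 64.7% for muscle 2 and 52.0% for muscle 3. In 14234 cytosines (2.64%) 1 fish was under 10% and another at 90% or more. The remaining fish was between these limits in 54.0% of them, at 90% or more in 33.2% and under 10% in 12.9%. Between muscle 1 and 3, muscle 1 was under 10% and muscle 3 at 90% or more at 5843 cytosines, and the reverse held at 3724. The more deeply covered muscle 2 thus stood apart least often at wide-range cytosines, while at the other cytosines it was farthest from the median fish most often, at 36.3% against 31.4% for muscle 1 and 32.3% for muscle 3. The part of depth in this was not tested.

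Wide ranges came in patches, with higher shares on the same strand up to 50 bp. Of the cytosines 2 to 10 bp from a wide-range cytosine, 49.2% also had a wide range when on the same strand and 22.6% when on the opposite strand, against 10.05% of all cytosines. At 11 to 50 bp these shares were 42.0% and 20.3%. At 51 to 100 bp they were 19.6% and 21.7%, and at 2001 to 10000 bp both were 11.3%. The 10.05% covers all kept cytosines, and is not the background of cytosines with a neighbour at a given distance and strand. Both cytosines had a wide range in 6704 of 219539 same-strand and 499 of 60278 opposite-strand pairs at 2 to 10 bp. The background differed between these pairs, so the shares alone do not measure the strand contrast. Where both cytosines at 2 to 10 bp had a wide range, the same fish stood apart in the same direction in 70.8% of same-strand pairs and 44.3% of opposite-strand pairs, against 19.1% from the frequencies of each fish and direction alone. At the CpG itself, the opposite cytosine of a wide-range cytosine also had a wide range in 25.8% of cases.

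The 4 clusters chosen for the largest range were short and lay on 1 strand each. On LG2 (22799118 to 22799151, 34 bp, forward strand) the 6 cytosines were all at 0% in muscle 1 and all at 100% in muscle 3, with a mean of 30.6% in muscle 2. On LG5 (13382755 to 13382801, 47 bp, reverse strand) the 6 cytosines were at 100% in muscle 1, 0% in muscle 2 and 100% in muscle 3. On LG14 (18333552 to 18333590, reverse strand) the means of 5 cytosines were 0%, 7.78% and 100%, and on LG18-21 (661615 to 661661, reverse strand) they were 0%, 61.4% and 100%. Coverage in these clusters was between 15 and 54 reads in every library, and on LG2 it was 22 to 23 reads in muscle 1, 27 to 29 reads in muscle 2 and 42 to 52 reads in muscle 3. All 4 were under 50 bp long, the length of a read. Of the 31903 clusters of at least 5 positions, 589 (1.85%) had a range over 50 points between the means of the fish, and the median range was 6.15 points.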

How the data were processed

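RRBS data of muscle from 3 fish were used. The authors trimmed reads with Trimmomatic, aligned them to dicLab v1.0c with BSMAP 2.90 and called methylation with its methratio script. Per the deposited files, a row gives 1 cytosine on 1 strand, with a read count (coverage) and the percentages of C and of T. Methylated reads were taken as coverage times percent, rounded. No gene model, expression table or deposited comparison (fold changes and p-values between tissues) was used, and the testis libraries served only to count listed cytosines.

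Reads were summed over fish for pooled levels and over strands for CpG positions. Python 3.11.15 with numpy 2.4.6, pandas 2.3.3, scipy 1.17.1, numba 0.67.0 and matplotlib 3.10.9 was used, and the functions were tested on simulated data. Reads were thinned to 10 per cytosine with seed 1. Coverage sets the precision: intervals from reads would cover counting error only. No test was made.

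The regions named were the longest runs, the linkage groups and 1 Mb windows with the highest and lowest means, and the clusters with the largest and smallest ranges between fish. The cytosines, measures and rules were chosen with earlier results of these data known. The alternatives were other coverage limits, level limits, gaps and run sizes, thinning, other ways of summing, linkage groups alone, rank correlation and each fish left out.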

Additional observations from a re-analysis of the deposited data

How the results depend on the processing

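No paired analysis was possible because no groups were compared. Alternatives were run for 10 values: the mean level, the shares under 10% and at 80% or more, r at 2 to 50 bp and at 1 to 2 kb, the median lengths of both kinds of run, the range over linkage groups, the median SD and the wide-range share. Of these, the range over linkage groups moved by less than 1 SD under every alternative that applied to it. None was run for the results on density, group ends, surroundings of runs, strands or the fish that stood apart. On linkage groups alone the mean level was 55.0%, 29.1% of cytosines were under 10% and 42.0% at 80% or more, r at 1 to 2 kb was 0.403, the median methylated run was 49 bp, the median SD 6.26 points and the wide-range share 12.4%. With at least 5, 20 or 30 reads (618138, 418234 and 322042 cytosines) the median SD was 5.17, 4.58 and 4.36 points. At 20 and 30 reads r at 1 to 2 kb was 0.544 and 0.559 and the wide-range share 8.53% and 6.83%, and at 30 reads 52.2% were at 80% or more and the median methylated run was 49 bp. Thinned to 10 reads, 22.3% were under 10%, the median unmethylated run was 61 bp and the median SD 5.77 points. With the mean of the libraries' percentages in place of summed reads the median methylated run was 50 bp. Spearman's rho was 0.820 at 2 to 50 bp and 0.236 at 1 to 2 kb.

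With unmethylated set at under 20%, 26.2% of cytosines qualified and the median run was 81 bp. With methylated set at 90% or more these were 34.9% and 42 bp. Run lengths followed their definition: with gaps of at most 50 or 200 bp the medians were 47 and 114 bp for unmethylated and 44 and 75 bp for methylated runs, and with at least 1 or 5 positions they were 36 and 109 bp and 12 and 95 bp. Leaving out each fish in turn gave 22.9% to 24.2% under 10%, 50.4% to 51.6% at 80% or more, r of 0.935 to 0.942 at 2 to 50 bp and 0.494 to 0.511 at 1 to 2 kb, and medians of 58 to 69 bp and 48 to 51 bp. The median SD was then 2.67 to 3.13 points and the wide-range share 5.43% to 7.29%, lower whichever fish was left out. At a given cytosine 2 fish cannot span more than 3, and the set of kept cytosines changed as well. On the unchanged set, pairs of fish were over 50 points apart at 4.7% to 6.7% of cytosines. Summed strands gave no separate value for correlations and runs, and the mean of percentages none for spread. Coverage limits the levels of single cytosines: at 10 reads a level moves in steps of 10 points.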
